A study of Chromochloris zofingiensis with 12 samples.

Results

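The comparison described here is low nitrate under high light: HL 1 mM against HL 10 mM in the unicellular green alga *C. zofingiensis* (wild type, strain CCAP 211/14), over every gene of the expression table that was not at 0 in all 12 libraries. It uses 6 of the 12 libraries of the series, 3 per group, and 14916 of the 15274 genes listed were tested, since 358 were at 0 everywhere. Both groups came from continuous cultures with a maximum irradiance at the reactor surface of 1000 µE m-2 s-1 and differed in the nitrate of the feed, 1 or 10 mM. Dilution rate (0.5 d-1), day length (12 h of light), temperature (25 °C) and pH (7.5) were the same in both, and harvest was at 4 h into the light. The LL groups, with 3 libraries each, had a maximum irradiance of 300 µE m-2 s-1 and the same nitrate levels. They were normalized and fitted together with the HL libraries and so also enter the HL estimates and their spread. The alga is a single strain in all groups. The study describes sampling on 3 consecutive days with analysis in triplicate, and does not state if a group's 3 libraries are those days. No source states if they come from 1 culture or different reactors. The p-values thus reflect the scatter among these libraries alone, which could be technical. In a turbid culture the light that reaches a cell also depends on the biomass, which was not analysed here, so nitrate supply and light per cell cannot be told apart.

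Algae build amino acids, chlorophyll and the proteins of the photosynthetic apparatus from nitrate, and when it runs short, growth slows while carbon is moved to storage compounds. *C. zofingiensis* is known for the pigments it then forms. All of them derive from lycopene, a linear carotene, whose ends are closed by cyclases into α-carotene, the precursor of lutein in the antenna complexes, or β-carotene. From β-carotene, hydroxylases make zeaxanthin, and ketolases (BKT) add the keto groups that lead to canthaxanthin and the red astaxanthin, which is stored outside the photosynthetic membranes. Zeaxanthin is also the substrate of an epoxidase and the product of the reverse de-epoxidation, the xanthophyll cycle that protects the antenna from excess light.

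Low nitrate under HL raised more genes than it lowered at the 2-fold threshold. With thresholds of 0.05 for the limma adjusted p and of 2-fold for the change in quantile-normalized log2(FPKM + 1), 1074 genes were higher (7.2% of those tested) and 545 were lower (3.65%) in HL 1 mM. FPKM count sequenced fragments relative to transcript length and to the total mapped in a library, a unit inferred here from the values. Of the genes called, 250 rose and 67 fell at least 4-fold, and 80 rose and 13 fell at least 8-fold. Genes called higher had a median log2 fold change of 1.52 and genes called lower of -1.26, against -0.08 over all genes tested. In 1071 of the 1074 and in 542 of the 545 genes, the 3 libraries of one group all lay on one side of the other 3, where 64.9% of all genes tested had groups that did not overlap. With the fold threshold dropped, 3688 genes passed the adjusted p as higher (24.7%) and 4959 as lower (33.2%), so smaller changes were more often downward on this scale, whereas without quantile normalization 8001 genes passed as higher (53.6%) and 1530 as lower (10.3%).

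**Figure D1:**
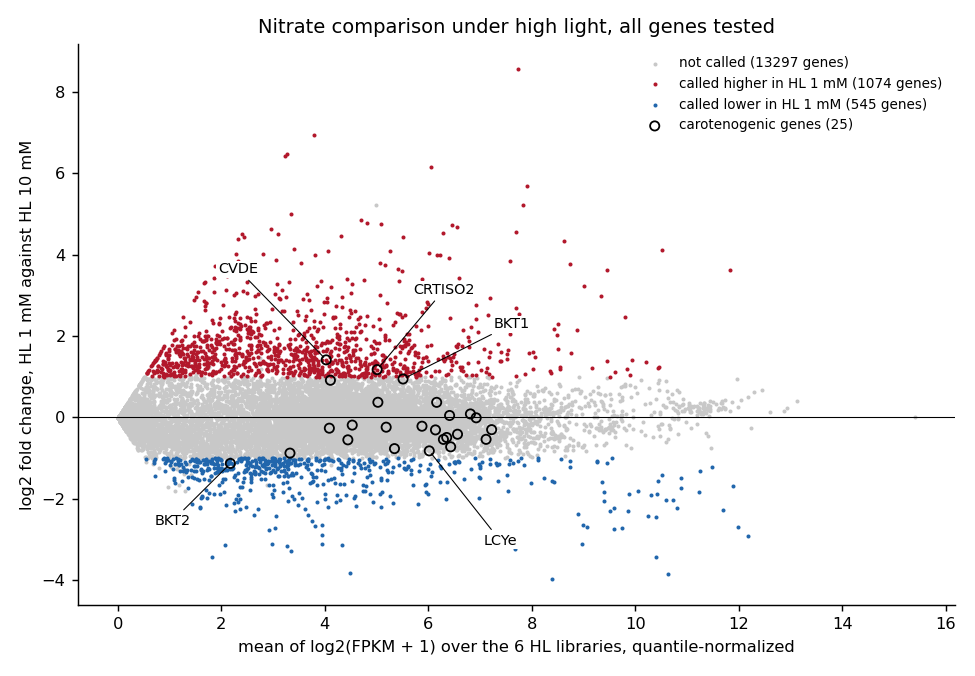
Log2 fold change of HL 1 mM against HL 10 mM for each of the 14916 genes tested, against the mean of its quantile-normalized log2(FPKM + 1) over the 6 HL libraries. Red points are the 1074 genes called higher, blue points the 545 called lower, grey points all others, and black circles the 25 carotenogenic genes, of which CVDE and CRTISO2 lie among the red points and BKT2 among the blue.

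The libraries of a group resembled each other more than those of the other group. Across genes, Pearson's r between normalized libraries was 0.988 to 0.993 within HL 10 mM, 0.992 to 0.996 within HL 1 mM and 0.930 to 0.951 between the groups, and the median SD of a gene over 3 libraries was 0.12 and 0.10 log2 units. Sequencing depth cannot be read from the deposited values, which hold no counts. The shape of the transcript pool also differed. The deposited FPKM summed to 1078210 to 1115110 in the HL 10 mM libraries and to 956599 to 967860 in the HL 1 mM libraries, while the median gene, among genes above 0 in every library, had 16.1 to 18.1 FPKM and 23.2 to 24.2 FPKM. Genes listed at 0 numbered 1056 to 1401 per library in HL 10 mM and 754 to 791 in HL 1 mM.

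The difference in shape came with a smaller share of the most abundant transcripts. The 100 genes with the highest mean over the 6 HL libraries, all at 1829.5 FPKM or more, took 36.6 to 39.1% of the summed FPKM in HL 10 mM and 26.1 to 27.0% in HL 1 mM, with no overlap. The first 10 of them took 12.9 to 13.6% and 6.16 to 6.54%. In 96 of the 100 genes the deposited mean was lower in HL 1 mM, as in 3424 of all 14916 genes. Quantile normalization gives every library the same distribution of values and so sets this difference to zero: on that scale 61 of the 100 were higher, 21 were lower and 18 did not pass the adjusted p, against 24.7% of all genes higher and 33.2% lower. Without it 2 of the 100 were higher and 69 lower, where 63.9% of all genes passed, and with libraries scaled to one median 2 were higher and 98 lower. At the 2-fold threshold 2 of the 100 were called higher and 15 lower with quantile normalization, and 2 and 18 without it, against 7.2% and 3.65% of all genes with it and 18.1% and 1.17% without.

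**Figure D2:**
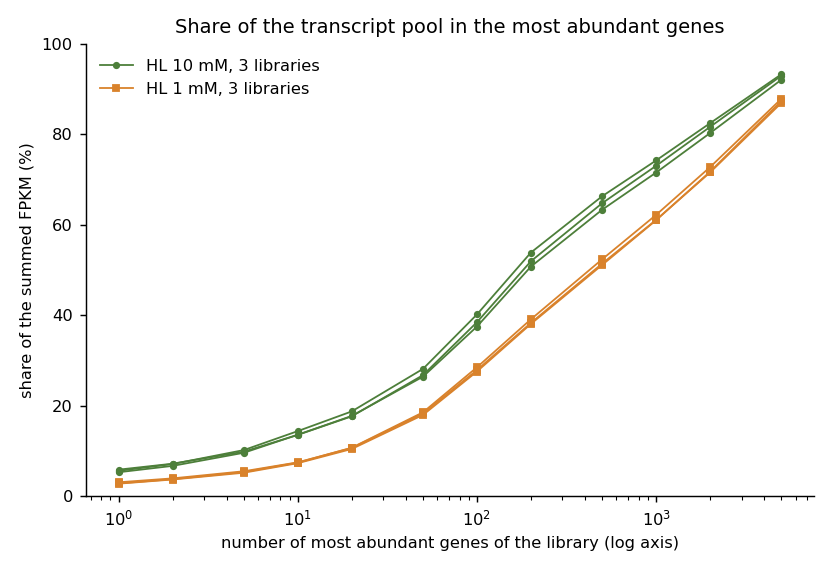
Share of the summed deposited FPKM of a library, in percent, held by its own most abundant genes, from 1 gene to 5000 genes on a log axis, with 1 line per library (green circles HL 10 mM, orange squares HL 1 mM). The HL 1 mM lines run below the HL 10 mM lines at every number of genes drawn, with 2.75 to 3.06% against 5.28 to 5.85% in the single most abundant gene.

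The most abundant gene shows what the scaling does. It ranked first in all 12 libraries, with 63623, 62329.6 and 56923 FPKM in HL 10 mM and 26318, 27274 and 29248 FPKM in HL 1 mM. Its mean was 60958 ± 3554 (SD, n = 3) and 27614 ± 1494 FPKM, so the groups lay far apart as deposited, yet quantile normalization set both to the same value and its log2 fold change to 0.00, against -1.14 without it (limma adjusted p = 3.87e-07). The genes of rank 3, 4, 6 and 7 had log2 changes of 0.41, 0.23, 0.15 and 0.13 after quantile normalization and of -0.72, -0.95, -1.03 and -0.99 without it. Those with larger changes kept their direction on both scales. The gene of rank 2 fell from 15418 ± 1258 to 1362 ± 53.7 FPKM (SD, n = 3), a log2 change of -2.92, and the gene of rank 5 from 12530 ± 1659 to 1257 ± 35.6 FPKM, a log2 change of -2.69. One of the first 10 rose: the gene of rank 10 had 1233 ± 44.2 FPKM in HL 10 mM and 8669 ± 358 FPKM in HL 1 mM, a log2 change of 3.62, and 4 of the first 10 were called lower. The data used here pair none of these genes with a product.

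For that reason 3 scalings were compared for the counts of calls, the level classes and the named genes, and not for the chromosome shares, the runs of neighbouring IDs or the genes at 0. Without quantile normalization the median log2 fold change over all genes was 0.33, which is 0.40 above that with it, and 2693 genes were called higher (18.1%) and 175 lower (1.17%), so that 93.9% of the calls were higher against 66.3% with quantile normalization. With libraries scaled to one median, 1529 genes were called higher (10.3%) and 598 lower (4.01%), or 71.9% higher, and the median was -0.03. Under all 3 scalings 980 genes were called higher, most of the 1074, and 164 lower, fewer than 1 in 3 of the 545. None was called in opposite directions with and without quantile normalization. Small changes depended on the scale more, since 2084 of the 4959 genes that were lower at the adjusted p had a higher deposited mean in HL 1 mM. The adjusted p was passed under all 3 scalings by 2896 higher (19.4%) and 1439 lower genes (9.65%).

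Calls were not spread evenly over expression levels. By the mean deposited FPKM of a gene over the 6 HL libraries, 444 of 3510 genes between 1 and 10 FPKM were called higher (12.6%) and 266 lower (7.58%), against 525 (6.46%) and 180 (2.21%) of 8133 genes between 10 and 100 FPKM. Among the 1420 genes at 100 FPKM or more, 102 were higher (7.18%) and 81 lower (5.7%), and among the 1853 genes under 1 FPKM, 3 were higher and 18 lower. The counts turned on the scaling. Under 1 FPKM, 71 were higher and 0 lower without quantile normalization and 35 and 3 with median scaling. Between 1 and 10 FPKM, 1357 were higher and 21 lower without quantile normalization and 871 and 50 with median scaling, and in the class at 100 FPKM or more 67 were higher and 277 lower with median scaling. The pseudocount of 1 limits the fold change of genes at low levels, and a value at 0 may be a failed estimate.

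Under HL, some transcripts were listed only in the low-nitrate group. In 41 genes all 3 HL 10 mM libraries were listed at 0 and all 3 HL 1 mM libraries were at 1 FPKM or more, and no gene showed the reverse. The HL 10 mM libraries also had more genes at 0 in general, 1056 to 1401 against 754 to 791. The means of the 41 genes in HL 1 mM ran from 1.15 to 98.8 FPKM with a median of 2.76 FPKM, and 2 exceeded 50 FPKM. Of the 41 genes, 30 were called higher, which the way they were selected favours. In LL 10 mM 11 of the 41 were at 0 in all libraries, and 7 reached 1 FPKM or more in at least 1 library. In LL 1 mM 24 were at 1 FPKM or more in all libraries, and 5 were at 0 in at least 1 library. More broadly, 331 of the 1074 genes called higher had a mean under 1 FPKM in HL 10 mM, whereas 46 of the 545 called lower had a mean under 1 FPKM in HL 1 mM. Being called higher favours a low level in HL 10 mM, and being called lower favours one in HL 1 mM. For scale, 1853 of all 14916 genes tested had a mean under 1 FPKM over the 6 HL libraries. The share of all genes in each group alone is not given here.

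Single genes moved by far more than the pathway described next. Cz13g08120, whose ID places it on chromosome 13, had 8.63, 6.82 and 7.96 FPKM in HL 10 mM and 2979.9, 3183 and 2989.9 FPKM in HL 1 mM. The groups were far apart, with a log2 fold change of 8.56 (SE 0.13, limma adjusted p = 3.83e-11), the largest rise among the genes called at the pseudocount of 1. Cz06g35170, on chromosome 6 by its ID, had 0, 0.335 and 0.113 FPKM in HL 10 mM and 194, 159 and 145 FPKM in HL 1 mM, a log2 fold change of 6.94 (SE 0.15, adjusted p = 1.77e-10). The first was a low transcript with ample nitrate and the second was at or near 0. With a pseudocount of 0.1 their order changed, to 8.69 for Cz13g08120 and 9.05 for Cz06g35170. Cz17g10010, on chromosome 17 by its ID, had 1329.6, 1853 and 1589 FPKM in HL 10 mM and 92.5, 90.1 and 90.3 FPKM in HL 1 mM, a log2 fold change of -3.98 (SE 0.08, adjusted p = 1.07e-10). Cz15g09060, on chromosome 15 by its ID, was among the most abundant transcripts in HL 10 mM with 7463, 9632 and 8457 FPKM and had 423, 477 and 390 FPKM in HL 1 mM, a log2 fold change of -3.86 (SE 0.08, adjusted p = 1.46e-10). At the pseudocount of 1 these are the genes that rose most and fell most among those called, and all 4 kept their direction under the 3 scalings.

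Along the chromosomes, the share of genes called higher ran from 6.03% on chromosome 3 to 10.5% on chromosome 14 and 10.4% on chromosome 17. Genes called lower took 2.43% on chromosome 12 and 7.84% on chromosome 17, where 28 of 268 genes were higher and 21 were lower. Neighbouring gene IDs were at times called together. Runs of at least 3 consecutive tested IDs called higher numbered 48 and held 163 genes, and 9 runs called lower held 30 genes. The longest, 8 consecutive IDs on chromosome 2, had log2 fold changes of 1.31 to 2.03, and 5 of the 8 were also called higher by low nitrate in LL. A run of 7 IDs on chromosome 6 had log2 fold changes of 1.62 to 2.06 and all 7 were called higher in LL as well, while of 7 IDs on chromosome 11, at 1.27 to 1.62, 4 were. Copies of a gene family often lie side by side and can share reads, and whether these runs hold copies was not tested. The counts of runs are a description without a test.

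In the carotenoid pathway, low nitrate under HL raised transcripts of a ketolase, an isomerase, a cyclase-family gene, a de-epoxidase and a neoxanthin synthase. It lowered those of a phytoene desaturase, the ζ-carotene desaturase, isomerases, the ε-cyclase, 2 hydroxylases of the lutein branch and another de-epoxidase. Of the 25 gene IDs that the study pairs with names of this pathway, 5 rose, 15 fell and 5 did not pass the adjusted p. These are 20 of 25, or 80%, against 58% of all genes tested, and the median log2 fold change of the 25 was -0.27 against -0.08. The list is the study's and had been analysed on these samples before, so it is not independent evidence of a direction. The counts depend on the scale. Without quantile normalization 8 rose and 8 fell, with a median of -0.02. On that scale 53.6% of all genes rose and 10.3% fell, so that 63.9% passed in either direction. With median scaling 5 rose and 18 fell, where 27.7% of all genes rose and 33.1% fell. Under all 3 scalings 5 rose (CRTISO2, CVDE, BKT1, VDE Cz06g01120 and NSY Cz15g04070) and 8 fell (PDS Cz02g32280, ZISO, ZDS, CRTISO, LCYe, CYP97A2, CYP97C and VDE Cz06g02070), where 29.1% of all genes passed in one direction under all 3. At 2-fold, CVDE and CRTISO2 were called higher and BKT2 lower.

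**Figure D3:**
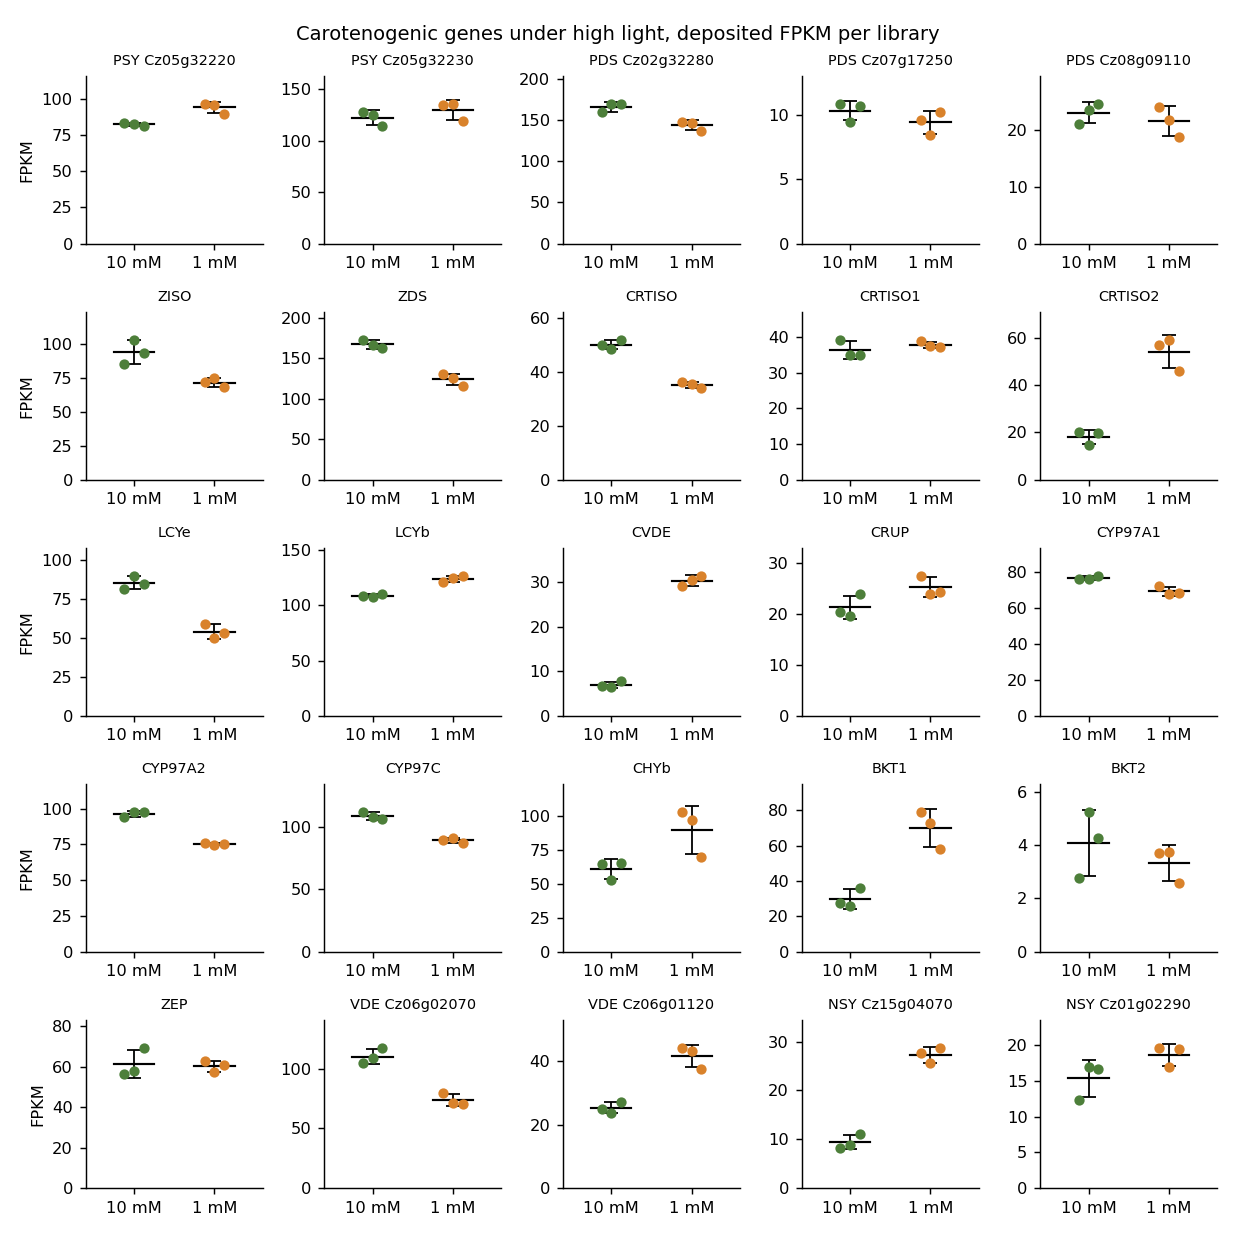
Deposited FPKM of the 25 carotenogenic genes in the 3 HL 10 mM libraries (green) and the 3 HL 1 mM libraries (orange), 1 panel per gene with its own axis from 0. Points are libraries, long bars the means and error bars the SD over 3 libraries, and the groups stand clearly apart in CRTISO2, CVDE, BKT1, NSY Cz15g04070 and LCYe, while BKT2 and ZEP overlap.

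Lycopene is made from geranylgeranyl diphosphate in a chain of desaturations and isomerizations, and on the quantile-normalized scale 7 of its 10 genes fell, 1 rose and 2 did not pass, where 33.2% of all genes fell. Under all 3 scalings 4 fell and 1 rose, where 9.65% of all genes fell, and the deposited mean was lower in 6 of the 10 and higher in 4. Phytoene synthase (PSY), the entry enzyme, is listed with 2 IDs that are neighbours on chromosome 5 and may share reads. PSY Cz05g32220 had 83.1, 82.7 and 81.1 FPKM in HL 10 mM and 96.5, 95.7 and 89.8 FPKM in HL 1 mM. The deposited values do not overlap, but after quantile normalization the log2 difference was 0.05 (95% interval -0.13 to 0.22, limma adjusted p = 0.632), and it was -0.30 with median scaling. PSY Cz05g32230 had 128, 125 and 114 FPKM against 135, 136 and 119 FPKM, overlapping groups with a log2 difference of -0.01 (95% interval -0.19 to 0.17, adjusted p = 0.923), against 0.08 without quantile normalization. Neither PSY thus had a difference that held over the scalings.

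Phytoene desaturase (PDS) and ζ-carotene desaturase (ZDS) introduce the double bonds of lycopene, and ζ-carotene isomerase (ZISO) acts between them. PDS Cz02g32280 had 159, 170 and 169 FPKM in HL 10 mM and 148, 147 and 137 FPKM in HL 1 mM, lower in every library, with a log2 fold change of -0.30 (SE 0.06, adjusted p = 0.0022) that was -0.70 with median scaling. ZISO went from 84.9, 103 and 93.2 FPKM to 71.8, 74.4 and 67.8 FPKM (-0.54, SE 0.08, adjusted p = 0.000242). ZDS went from 172, 166 and 162 FPKM to 130, 125 and 116 FPKM (-0.54, SE 0.06, adjusted p = 5.12e-05). These 3 genes did not overlap between groups and fell under every scaling, with log2 changes of -0.87 for ZISO and -0.92 for ZDS with median scaling. The other PDS IDs had lower levels and overlapping deposited values. PDS Cz07g17250 had 10.9, 9.47 and 10.7 FPKM against 9.59, 8.45 and 10.2 FPKM, with a log2 fold change of -0.88 after quantile normalization (adjusted p = 3.48e-06) and of -0.12 without it (adjusted p = 0.207). PDS Cz08g09110 had 21.1, 23.5 and 24.6 FPKM against 24, 21.8 and 18.7 FPKM, at -0.55 (adjusted p = 0.0056) and -0.10 (adjusted p = 0.516). Their calls rest on the quantile or the median scaling.

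The carotenoid isomerases (CRTISO), which turn the cis bonds of prolycopene to the trans form, split. CRTISO fell from 49.9, 48.7 and 52 FPKM to 36.3, 35.7 and 34.1 FPKM, a log2 fold change of -0.77 (SE 0.06, limma adjusted p = 3.93e-06), and of -0.49 without quantile normalization. CRTISO1 had 39.3, 35 and 35 FPKM against 38.9, 37.4 and 37.1 FPKM, overlapping as deposited, and its log2 fold change of -0.24 (adjusted p = 0.0109) turned to 0.05 without quantile normalization. CRTISO2 moved the other way from CRTISO. It rose from 20.1, 14.8 and 19.8 FPKM to 57.1, 59.2 and 46.2 FPKM, means of 18.2 ± 2.99 and 54.2 ± 6.98 FPKM (SD, n = 3), with a log2 fold change of 1.18 (SE 0.14, adjusted p = 5.38e-05). The groups did not overlap, and the isomerase with the least transcript at 10 mM nitrate had the most at 1 mM.

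At the branch point, LCYe closes the ε-ring of α-carotene and LCYb the β-rings. LCYe fell from 81.7, 89.9 and 84.6 FPKM in HL 10 mM to 59, 50 and 53.2 FPKM in HL 1 mM, a log2 fold change of -0.82 (SE 0.08, limma adjusted p = 1e-05). No libraries overlapped, and the fall was -0.65 without quantile normalization and -1.14 with median scaling. LCYb had 108, 107 and 110 FPKM against 121, 124 and 127 FPKM. These do not overlap, yet on the quantile-normalized scale the log2 difference was 0.08 (95% interval -0.06 to 0.23, adjusted p = 0.288), without it 0.19 (adjusted p = 0.0224), and with median scaling it turned to -0.30 (adjusted p = 0.00234). In each scaling LCYe was thus below LCYb in fold change. As deposited, the means of LCYe and LCYb were 85.4 ± 4.15 and 109 ± 1.19 FPKM in HL 10 mM and 54.1 ± 4.59 and 124 ± 2.71 FPKM in HL 1 mM (SD, n = 3).

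The study groups CVDE and CRUP with the β-cyclases. Both belong to the cyclase family by sequence, and in *Chlamydomonas reinhardtii* CVDE is known as a violaxanthin de-epoxidase. CVDE rose from 6.64, 6.4 and 7.8 FPKM to 29.1, 30.6 and 31.4 FPKM, means of 6.95 ± 0.749 and 30.4 ± 1.17 FPKM (SD, n = 3). Its log2 fold change of 1.41 (SE 0.07, limma adjusted p = 8.14e-08) was the largest among the 25 genes, and was 1.98 without quantile normalization. CRUP had 20.4, 19.7 and 23.9 FPKM against 27.4, 23.9 and 24.4 FPKM, groups that touch at 23.9 FPKM, and its direction turned with the scale, from -0.19 (adjusted p = 0.0324) after quantile normalization to 0.24 (adjusted p = 0.0338) without it. Its call was also lost without HL 10 mM replicate 3 (adjusted p = 0.109), HL 1 mM replicate 2 (0.0966) or HL 1 mM replicate 3 (0.116).

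Hydroxylases of the CYP97 family add the hydroxyl groups that make lutein from α-carotene, and CHYb does so on the β-rings on the way to zeaxanthin. CYP97A2 fell from 94, 97.6 and 97.6 FPKM to 76.1, 74.8 and 75.5 FPKM, a log2 fold change of -0.49 (SE 0.05, limma adjusted p = 2.82e-05). CYP97C fell from 112, 108 and 106 FPKM to 89.6, 90.9 and 86.9 FPKM (-0.41, SE 0.05, adjusted p = 9.17e-05). In neither did the groups overlap, and both fell under all 3 scalings, with log2 changes of -0.84 for CYP97A2 and -0.77 for CYP97C with median scaling. CYP97A1 had 76.6, 76.1 and 78 FPKM against 72.3, 67.8 and 68.4 FPKM, lower in every library, with a log2 fold change of -0.31 (SE 0.07, adjusted p = 0.00277) that was -0.14 and did not pass without quantile normalization (adjusted p = 0.103). With median scaling the log2 fold change of CYP97A1 was -0.63 (adjusted p = 3.18e-05). CHYb had 64.4, 52.7 and 65.5 FPKM against 103, 96.7 and 69.5 FPKM. Every HL 1 mM library was higher as deposited, but replicate 3 only slightly, and the log2 difference of 0.37 (95% interval 0.02 to 0.72) had an adjusted p of 0.0685. It passed without HL 1 mM replicate 3 (0.55, adjusted p = 0.00882), without LL 10 mM replicate 1 (adjusted p = 0.0491) and without quantile normalization (0.54, adjusted p = 0.0169), and was 0.05 with median scaling (adjusted p = 0.814).

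The ketolases BKT1 and BKT2 make the keto groups of canthaxanthin and astaxanthin, and only BKT1 rose. BKT1 had 27.4, 25.9 and 36.1 FPKM in HL 10 mM and 79.1, 72.7 and 58.2 FPKM in HL 1 mM, means of 29.8 ± 5.53 and 70 ± 10.7 FPKM (SD, n = 3). All HL 1 mM libraries lay above all HL 10 mM libraries, with a log2 fold change of 0.94 (SE 0.13, limma adjusted p = 0.000115), 1.21 without quantile normalization and 0.72 with median scaling. BKT2 was a low transcript with 2.75, 5.23 and 4.25 FPKM against 3.7, 3.73 and 2.56 FPKM. Its deposited values overlap. Its log2 fold change of -1.13 (SE 0.21, adjusted p = 0.000898) shrank to -0.21 without quantile normalization (adjusted p = 0.38) and to -0.59 with median scaling (adjusted p = 0.0299). BKT1 was thus the more abundant ketolase transcript at both nitrate levels.

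In the xanthophyll cycle, zeaxanthin epoxidase (ZEP) adds epoxy groups to zeaxanthin and violaxanthin de-epoxidase (VDE) removes them, and NSY names neoxanthin synthase, which acts on violaxanthin. ZEP had 56.5, 58 and 69.2 FPKM against 62.7, 57.4 and 60.7 FPKM, overlapping groups. Its log2 fold change of -0.22 (SE 0.08, limma adjusted p = 0.0359) was -0.02 without quantile normalization (adjusted p = 0.876) and -0.51 with median scaling (adjusted p = 0.0001). After quantile normalization, leaving out HL 10 mM replicate 2 or 3, or HL 1 mM replicate 1, 2 or 3, took the adjusted p of ZEP to 0.0566, 0.139, 0.0543, 0.116 and 0.0615. The VDE genes moved apart. VDE Cz06g02070 fell from 105, 109 and 117 FPKM to 79.8, 71.1 and 70.3 FPKM (-0.72, SE 0.06, adjusted p = 6.87e-06), and VDE Cz06g01120 rose from 25, 23.7 and 27.2 FPKM to 44.2, 43.3 and 37.7 FPKM (0.37, SE 0.07, adjusted p = 0.00126), by 0.70 without quantile normalization and 0.22 with median scaling. In neither did the groups overlap, and the VDE gene that was less abundant at 10 mM nitrate was the one that rose. NSY Cz15g04070 rose from 8.29, 8.77 and 11 FPKM to 27.6, 25.5 and 28.7 FPKM, a log2 fold change of 0.91 (SE 0.09, adjusted p = 1.2e-05) and of 1.46 without quantile normalization. NSY Cz01g02290 had 12.4, 17 and 16.7 FPKM against 19.6, 16.9 and 19.4 FPKM, overlapping groups whose log2 difference was -0.27 (95% interval -0.56 to 0.03, adjusted p = 0.106), and 0.28 without quantile normalization (adjusted p = 0.101). Without HL 10 mM replicate 1 or LL 10 mM replicate 1 the adjusted p of NSY Cz01g02290 was 0.0379 and 0.0459.

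**Figure D4:**
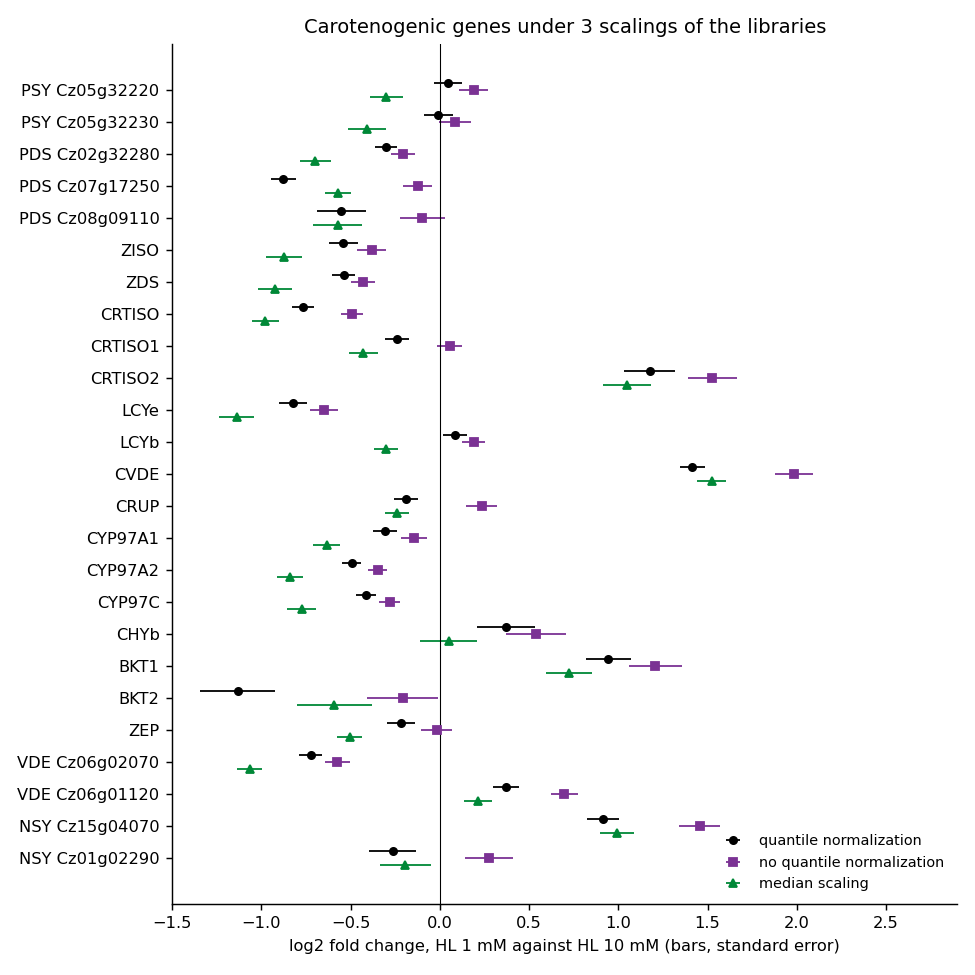
Log2 fold change of HL 1 mM against HL 10 mM for the 25 carotenogenic genes, with standard errors as bars, after quantile normalization (black circles), without it (purple squares) and with libraries scaled to one median (green triangles). CRTISO2, CVDE, BKT1, VDE Cz06g01120 and NSY Cz15g04070 lie right of 0 in all 3, and CRTISO1, CRUP, NSY Cz01g02290, LCYb and both PSY genes have estimates on both sides.

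Whether low nitrate acts alike at both irradiances was asked by setting the HL comparison beside LL 1 mM against LL 10 mM, which shares no library with it. In LL, 686 genes were called higher (4.6%) and 438 lower (2.94%). Of these, 551 were called higher in both, which is 51.3% of the HL list and 80.3% of the LL list, and 268 were called lower in both, 49.2% and 61.2%. In 4 genes the calls were opposite. Across all genes tested, the fold changes of HL and LL had a Pearson's r of 0.84 and a Spearman's rho of 0.80, a description over genes of the same 12 libraries, normalized together. Of the 1074 genes called higher under HL, 1050 had a positive log2 fold change in LL, and of the 545 called lower, 529 had a negative one. Over all genes tested the median log2 fold change in LL was -0.04, and the share of genes with either sign is not given here. The signs were read after quantile normalization alone.

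A larger list under HL does not by itself show a larger effect, so the difference of the nitrate effects was tested. It passed the limma adjusted p in 817 genes (5.48%): 463 had a more positive effect under HL (3.1%) and 354 a more negative one (2.37%). Among the 463, 189 were higher in both light regimes and more so under HL, 140 were higher under HL and did not pass in LL, and 32 were higher under HL and lower in LL. The other genes of the 463 were 50 that fell in both but less under HL, and 52 that fell in LL and did not pass under HL. Among the 354, 125 were lower in both and more so under HL, 127 were lower under HL and did not pass in LL, and 25 were lower under HL and higher in LL. The other genes of the 354 were 18 that rose in both but less under HL, and 59 that rose in LL and did not pass under HL. Of the 523 genes called higher under HL and not in LL, 166 passed this test as more positive, against 3.1% of all genes. Of the 277 called lower under HL and not in LL, 68 passed as more negative, against 2.37%. A call under HL and none in LL favours such a difference, so the test is not independent of this choice. These counts were unsteady: they lay between 122 and 770 for the more positive and between 80 and 651 for the more negative effects when 1 library was left out.

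**Figure D5:**
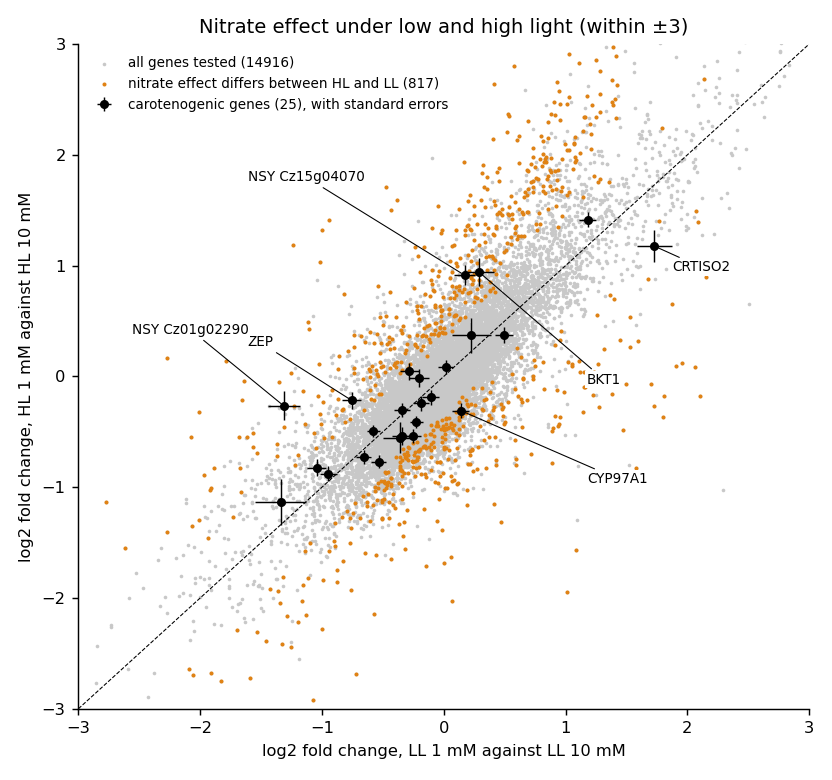
Log2 fold change of 1 mM against 10 mM nitrate under HL (vertical) and LL (horizontal), with 1 point per gene and equal effects on the dashed line. Orange points are the 817 genes whose nitrate effect differed between HL and LL, black points with standard errors the 25 carotenogenic genes, and 108 genes beyond 3 log2 units on either axis are not drawn. NSY Cz15g04070, BKT1, ZEP and NSY Cz01g02290 lie above the line, and CYP97A1 and CRTISO2 below it.

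The abundant transcripts that fell most under HL fell more than in LL. These genes were chosen by their fall under HL, which favours a larger effect there. The test of the difference is thus not independent of the choice. Cz15g09060 went from 17246 ± 1071 to 2125 ± 132 FPKM in LL (SD, n = 3) and from 8518 ± 1086 to 430 ± 43.5 FPKM under HL. Its log2 nitrate effect was -1.83 in LL and -3.86 under HL, a difference of -2.03 (SE 0.12, limma adjusted p = 1.08e-05). That difference was -1.28 without quantile normalization (adjusted p = 0.00385) and -1.36 with median scaling (adjusted p = 0.00396). Quantile normalization set all 3 LL 10 mM libraries of Cz15g09060 to 7969.3 FPKM, below the deposited 17246 FPKM, which makes the fall in LL smaller on that scale. Cz17g10010 went from 3587 ± 300 to 434 ± 24.3 FPKM in LL and from 1591 ± 262 to 91 ± 1.37 FPKM under HL, with effects of -2.77 and -3.98 that differed by -1.21 (SE 0.11, adjusted p = 0.000583). The difference for Cz17g10010 was -1.06 without quantile normalization (adjusted p = 0.00692) and -1.13 with median scaling (adjusted p = 0.0088). For the genes that rose most no such difference passed: Cz13g08120 had effects of 8.05 in LL and 8.56 under HL (difference 0.50, 95% interval 0.08 to 0.93, adjusted p = 0.141), and Cz06g35170 of 6.55 and 6.94 (difference 0.39, 95% interval -0.09 to 0.87, adjusted p = 0.316).

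Among the carotenogenic genes, 3 rose, 14 fell and 8 did not pass in LL, where 46.5% of all genes passed, with a median log2 fold change of -0.25 against -0.27 under HL. The nitrate effect of 4 of the 25 differed between the light regimes, against 5.48% of all genes. NSY Cz15g04070 had 14.1, 14 and 12.1 FPKM in LL 10 mM and 18.9, 19.7 and 23.7 FPKM in LL 1 mM, a log2 effect of 0.17 (adjusted p = 0.136) against 0.91 under HL, which differed by 0.74 (SE 0.12, limma adjusted p = 0.012). As deposited its LL groups did not overlap, and the LL effect is given after quantile normalization alone. NSY Cz01g02290 fell in LL from 28.3, 37.2 and 36.8 FPKM to 15.9, 17.1 and 18.8 FPKM (-1.31, adjusted p = 2.6e-05) and did not pass under HL, a difference of 1.05 (SE 0.19, adjusted p = 0.0153). The NSY differences held under all 3 scalings and with each of the 12 libraries left out in turn.

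ZEP, at 103, 99.1 and 95.4 FPKM in LL 10 mM and 73.3, 64.5 and 70.7 FPKM in LL 1 mM, fell more in LL (-0.76, adjusted p = 3.51e-05) than under HL (-0.22), a difference of 0.54 (SE 0.11, limma adjusted p = 0.0267). The HL 10 mM libraries of ZEP, at 56.5 to 69.2 FPKM, overlapped those of LL 1 mM. CYP97A1 had 54, 48.3 and 48.1 FPKM in LL 10 mM and 72.5, 65.1 and 63.5 FPKM in LL 1 mM, groups that did not overlap as deposited. After quantile normalization, the only scale given here for LL, the effect was 0.14 (adjusted p = 0.123). It differed from that under HL by -0.45 (SE 0.10, adjusted p = 0.0306). For ZEP and CYP97A1 the difference held under all 3 scalings but not without single libraries. It was lost in 7 of 12 fits for ZEP (adjusted p up to 0.0727) and in 8 of 12 for CYP97A1 (up to 0.07).

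For other genes that moved under HL the difference did not pass. BKT1 had 27.5, 23.3 and 20.4 FPKM in LL 10 mM and 37.1, 34.9 and 38 FPKM in LL 1 mM, a log2 effect of 0.29 (adjusted p = 0.0906) against 0.94 under HL. Its LL groups did not overlap as deposited, and the LL effect is given after quantile normalization alone. The difference between the HL and LL effects, 0.66 (95% interval 0.26 to 1.06), had a limma adjusted p of 0.0586. It was 0.59 without quantile normalization (adjusted p = 0.109) and 0.51 with median scaling (adjusted p = 0.103). It passed without HL 1 mM replicate 3 (0.0375), without HL 10 mM replicate 3 (0.0372) or with a trended and robust prior (0.0442). In 10 of the 12 fits that left 1 library out it did not pass (adjusted p up to 0.132). The highest BKT1 levels of the 4 groups were those of HL 1 mM, whose lowest library, at 58.2 FPKM, lay above every library of the other groups. CRTISO2 had 3.26, 3 and 2.29 FPKM in LL 10 mM and 17.4, 18.2 and 17 FPKM in LL 1 mM, an effect of 1.73 (adjusted p = 6.57e-06) against 1.18 under HL. That difference of -0.55 had an adjusted p of 0.13, and passed without quantile normalization (-0.75, adjusted p = 0.0429) and with median scaling (-0.88, adjusted p = 0.0261). For CVDE, at 7.54, 5.58 and 5.98 FPKM in LL 10 mM and 21.3, 21.2 and 23.8 FPKM in LL 1 mM, the effects of 1.18 in LL and 1.41 under HL differed by 0.23 (95% interval 0.02 to 0.45, adjusted p = 0.178), and for LCYe, at -1.04 and -0.82, by 0.22 (95% interval -0.02 to 0.46, adjusted p = 0.257).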

How the data were processed

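The authors sequenced stranded polyA mRNA libraries (reads of 150 nt), mapped them with HISAT2 and quantified them with StringTie on the published genome and annotation, after FastQC. They deposited 1 expression value per gene and library, read here as FPKM from the values, before any quantile normalization. Read counts were not used here, so counting error is unknown.

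Genes at 0 in all 12 libraries were left out. Log2(FPKM + 1) was quantile-normalized across the 12 libraries, as the study states for its own analysis, and 1 model with 4 groups was fitted with limma 3.58.1 in R 4.3.3 (default empirical Bayes, prior degrees of freedom 2.63). P-values were adjusted by Benjamini-Hochberg over 14916 genes. Genes were called at an adjusted p under 0.05 and at least 2-fold, and single genes at the adjusted p alone. Fold changes on the log2(FPKM + 1) scale understate the change of low genes. The interaction contrast was the HL minus the LL nitrate effect. An exact test of 3 against 3 libraries cannot go below p = 0.1, so calls rest on the variance pooled across genes.

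The genes named are the 25 IDs that the study pairs with enzyme names, and the 4 genes with the largest changes, 2 per direction, among those called with groups that do not overlap. The members and lists were chosen with earlier results of these data known. Other IDs were not paired with products, and no sequences were used here. The alternatives were a pseudocount of 0.1, a minimum mean of 1 FPKM, no quantile normalization, median scaling, a trended and robust prior, a replicate block, the 6 HL libraries alone and leaving out each library. The steps were also run on simulated data, and no result of that run is given or relied on here.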

Additional observations from a re-analysis of the deposited data

Results flagged for a closer look

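The nitrate effect of 6 named genes differed between high and low light by the limma interaction contrast, adjusted over all genes tested, of which 5.48% passed. Cz15g09060 and Cz17g10010 had been chosen by their fall under HL, which favours a larger effect there. The difference, the log2 effect under HL minus that in LL, was -2.03 (SE 0.12) for Cz15g09060, with an adjusted p of 1.08e-05. It was -1.28 without quantile normalization (adjusted p = 0.00385) and -1.36 with median scaling (adjusted p = 0.00396). For Cz17g10010 the difference was -1.21 (SE 0.11), with an adjusted p of 0.000583. It was -1.06 without quantile normalization (adjusted p = 0.00692) and -1.13 with median scaling (adjusted p = 0.0088). Both genes were lower with low nitrate in 3 of 3 libraries at each irradiance. The difference was 1.05 (SE 0.19) for NSY Cz01g02290, with an adjusted p of 0.0153, and 0.74 (SE 0.12) for NSY Cz15g04070, with an adjusted p of 0.012. It was 0.54 (SE 0.11) for ZEP, with an adjusted p of 0.0267, and -0.45 (SE 0.10) for CYP97A1, with an adjusted p of 0.0306. When 1 library was left out, it was lost in 7 of 12 fits for ZEP (adjusted p up to 0.0727) and in 8 of 12 for CYP97A1 (up to 0.07).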

How the results depend on the processing

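Scaling was the choice that moved most results. Without quantile normalization 2693 genes were called higher and 175 lower, 8 carotenogenic genes rose and 8 fell, 1559 higher and 114 lower genes were shared with LL, and the level classes held 71 higher and 0 lower genes under 1 FPKM, 1357 and 21 between 1 and 10 FPKM, and 1163 and 76 between 10 and 100 FPKM. It turned the log2 fold change of CRTISO1 to 0.055, of CRUP to 0.24, of NSY Cz01g02290 to 0.28 and of PSY Cz05g32230 to 0.084. Median scaling turned LCYb to -0.30 and PSY Cz05g32220 to -0.30, and gave 594 genes with a more negative nitrate effect under HL. The adjusted p alone gave 3688 higher and 4959 lower genes. A pseudocount of 0.1 gave 1072 lower genes, 478 of them shared with LL. With the mean over 12 libraries, 7 genes under 1 FPKM were called higher and 24 of the 100 most abundant were called lower, and 9 genes at 0 in HL 10 mM reached 5 FPKM in all HL 1 mM libraries.

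Leaving out each library in turn gave 1030 to 1124 genes called higher and 492 to 624 lower, 5 to 6 carotenogenic genes higher and 13 to 16 lower, and 487 to 606 higher and 238 to 300 lower genes shared with LL. PSY Cz05g32230 ranged from -0.063 to 0.041. The genes with a different nitrate effect under HL ranged from 122 to 770 and from 80 to 651, lowest without LL 1 mM replicate 2 and highest without LL 1 mM replicate 3, and they moved by over 1.5 times except without LL 10 mM replicate 1 or HL 10 mM replicate 3. Fits of the 6 HL libraries alone took the adjusted p of CRUP to 0.0917 and of ZEP to 0.0729.

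With the replicate number as a block, 801 genes had a more positive and 781 a more negative nitrate effect under HL, and CHYb passed (adjusted p = 0.034), while no other call of a named gene in the HL comparison changed. Deviations from the group means of equally numbered HL libraries correlated at 0.17, 0.07 and 0.19, and 6 of 6 libraries correlated best with their own number. This is a hint from the data. The study does not state if the numbers stand for its consecutive sampling days, so they were not taken as pairs. The cause of these changes was not tested.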
